A study of Mus musculus with 18 samples.

Results

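The genes described here encode a large share of the nuclear part of the mitochondrial respiratory chain in mouse liver. They were taken by symbol from the transcript table of the RNA-seq data, as every gene whose name began with Ndufa, Ndufb, Ndufc, Ndufs, Ndufv, Uqcr, Cox4 to Cox8 or Atp5, together with Sdha, Sdhb, Sdhc and Sdhd. The rule gave 89 of the 15572 genes of the table. It missed some nuclear subunits with other names, such as Cyc1 of complex III and Usmg5 of complex V, which were counted below among other genes of electron transport. By their known roles, 38 belong to complex I, 8 are assembly factors of complex I (Ndufaf1 to Ndufaf8), 4 form complex II, 8 belong to complex III, 15 to complex IV and 16 to complex V. The names did not always follow the function: Ndufa4 is now counted as a subunit of complex IV, Ndufa4l2 is its paralogue, and Atp5s is not a structural subunit of ATP synthase. Complexes are given below by gene symbol, so Ndufa4 and Ndufa4l2 stand under complex I and Atp5s under complex V.

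Complex I (NADH dehydrogenase) and complex II (succinate dehydrogenase) pass electrons to ubiquinone, complex III passes them on to cytochrome c, and complex IV (cytochrome c oxidase) passes them to oxygen. Complexes I, III and IV pump protons across the inner membrane, and complex V (ATP synthase) uses the gradient to make ATP. Complex II is built from nuclear genes alone, whereas the other complexes also need subunits encoded by mitochondrial DNA, which were not analysed here. In liver the chain consumes the NADH and FADH2 made by fatty acid oxidation and the TCA cycle, and it powers gluconeogenesis in the fasted state.

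The study asked how the histone demethylase JMJD1C acts in the liver response to feeding. Livers came from C57BL/6J mice that were 12 weeks old in the study's methods, either WT littermates or mice designated JMJD1C-LKO, in which floxed Jmjd1c was deleted by Cre recombinase under the albumin promoter, which is active in hepatocytes. Mice were on chow for 6 to 8 weeks, were fasted overnight and, where refed, ate a high-carbohydrate diet for 6 h by the labels, while the methods give a longer time. RNA-seq was made from WT refed and JMJD1C-LKO refed livers, from pooled RNA. ATAC-seq, which marks open chromatin, was made from single livers of fasted WT, refed WT and refed JMJD1C-LKO animals, and ChIP-seq for dimethylated lysine 9 of histone H3 (H3K9me2), a mark usually linked with silent genes, from WT fasted and WT refed livers. Each group held 2 samples.

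The 4 RNA libraries held 51265128 to 54400509 estimated counts, and the 89 genes took 1.70% to 1.77% of them. Jmjd1c, the deleted gene, was at 22.0 and 22.8 CPM (counts scaled to the library total) in the WT libraries and at 20.03 and 20.48 CPM in the libraries labelled JMJD1C-LKO, which was 90.5% of the WT mean and did not pass the test (log2 fold change −0.14, SE 0.084, edgeR adjusted p = 0.23). In livers of JMJD1C-LKO mice the paper reports a larger loss of Jmjd1c mRNA by RT-qPCR, and no detectable protein. Counts were deposited per whole transcript, so reads from exons left after a deletion would still be counted. Which exons were deleted is not known here. The target therefore does not check the label. The groups are therefore named as the libraries labelled JMJD1C-LKO, and every direction below rests on that label. Hepatocyte markers summed to 121141 and 123626 CPM in the WT libraries and to 113921 and 126820 CPM in those labelled JMJD1C-LKO. Markers of Kupffer cells were higher in the latter for 12 of 12 genes, with sums of 364 and 381 CPM against 715 and 1023 CPM. Other cell types also differed at an adjusted p under 0.05 by edgeR. Higher were 3 of 10 lymphocyte markers, 5 of 10 of endothelium and 3 of 10 of stellate cells and fibroblasts, with 0 lower. Of the hepatocyte markers, 5 of 12 were higher and 0 lower. Over all genes tested, 14.6% were higher and 13.4% lower. Fewer or more cells of a type and less or more RNA per cell cannot be told apart in whole liver. The H3K9me2 list of WT refed replicate 1 held 1297 summits where the other 3 held 7690 to 13456, and the ATAC lists held 3119 to 7632 summits in WT livers and 1450 and 825 in the livers labelled JMJD1C-LKO.

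The promoters of these genes are known to carry sites for NRF1, ETS factors such as GABP, YY1 and, at some genes, ERR-family receptors. The promoter table of RefSeq (build GRCm38.p6, 250 bases before to 50 after a start) held 74 of the 89 genes. The next 4 stretches are the 150 bases upstream of the starts of the genes that passed the RNA test described below, written 5′ to 3′ on the strand of the gene, with matches to the searched motifs in capitals.
Ndufb4, chr16:37654369-37654518, minus strand: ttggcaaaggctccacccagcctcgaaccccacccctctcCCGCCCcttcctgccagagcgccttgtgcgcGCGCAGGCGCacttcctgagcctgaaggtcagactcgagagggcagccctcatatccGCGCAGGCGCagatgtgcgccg
Ndufaf4, chr4:24897933-24898082, plus strand: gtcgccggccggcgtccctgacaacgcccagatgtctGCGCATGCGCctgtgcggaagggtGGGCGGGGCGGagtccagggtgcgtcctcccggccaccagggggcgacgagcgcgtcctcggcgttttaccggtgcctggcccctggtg
Ndufaf5, chr2:140170496-140170645, plus strand: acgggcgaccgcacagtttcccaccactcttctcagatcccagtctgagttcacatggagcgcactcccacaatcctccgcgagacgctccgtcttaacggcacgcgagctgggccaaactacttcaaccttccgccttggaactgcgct
Cox6b2, chr7:4753095-4753244, minus strand: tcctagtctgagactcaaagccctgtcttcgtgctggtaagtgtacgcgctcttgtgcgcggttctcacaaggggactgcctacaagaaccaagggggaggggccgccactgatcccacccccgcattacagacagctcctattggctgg
In the printed stretches, Ndufb4 held the NRF1 motif at 2 places, at positions -79 and -22 from the start. Its whole 300-base window held 3. Ndufaf4 held the NRF1 motif once, at -113, beside overlapping SP1 motifs at -89 and -84. No searched motif was in the printed stretches of Ndufaf5 and Cox6b2, but the whole 300-base window held 1 NRF1 motif at Ndufaf5 and 1 SP1 motif at Cox6b2. The next 4 stretches show the same window at genes with differing chromatin: Atp5b and Ndufa11, with ATAC summits in every WT liver; Atp5h, with ATAC summits in the fasted livers; and Cox6b1, the isoform of Cox6b2 that is abundant in liver, with H3K9me2 but no ATAC summit.
Atp5b, chr10:128083157-128083306, plus strand: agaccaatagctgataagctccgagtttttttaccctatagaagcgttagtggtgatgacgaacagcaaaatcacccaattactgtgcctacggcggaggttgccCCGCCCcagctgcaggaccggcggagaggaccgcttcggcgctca
Ndufa11, chr17:56717612-56717761, plus strand: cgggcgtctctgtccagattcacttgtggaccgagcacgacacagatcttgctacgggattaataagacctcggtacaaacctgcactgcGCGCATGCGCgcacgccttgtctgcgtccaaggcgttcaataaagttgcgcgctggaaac
Atp5h, chr11:115419920-115420069, minus strand: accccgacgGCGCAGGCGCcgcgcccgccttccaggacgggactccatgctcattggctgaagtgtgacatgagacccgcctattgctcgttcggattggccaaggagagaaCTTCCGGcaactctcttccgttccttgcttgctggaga
Cox6b1, chr7:30626115-30626264, minus strand: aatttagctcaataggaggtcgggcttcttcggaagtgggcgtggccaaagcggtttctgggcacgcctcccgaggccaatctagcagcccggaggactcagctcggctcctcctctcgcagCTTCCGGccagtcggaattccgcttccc
Ndufa11 held the NRF1 motif at -60, Atp5h held the NRF1 motif at -141 and the ETS motif at -38, and Cox6b1 held the ETS motif at -28. Atp5b held an SP1 motif at -45.

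Over the whole 300-base window and both strands, the NRF1 motif (the letters GCGCA, then any base, then GCGC) was in 19 of 74 promoters (25.7%), against 5.19% of the promoters of all 27025 genes of the table and 13.4% of 2123 genes with a mean of at least 50 CPM. The ETS motif CCGGAAG was in 18 (24.3%), against 9.93% of all and 18.5% of abundant genes. The YY1 motif AAGATGGCG was in 8 (10.8%), against 1.64% and 3.72%, and the ERR motif CAAGGTCA in 4 (5.41%: Atp5g3, Atp5l, Ndufs5 and Sdhd), against 1.76% and 1.55%. At least 1 of the NRF1, ETS and YY1 motifs was in 38 of 74 promoters (51.4%), against 15.1% of all and 31.1% of abundant genes. The SP1 motif GGGCGG was in 34 (45.9%), against 38.2% of all and 65.9% of abundant genes, and the E-box CACGTG that USF-1 binds was in 6 (8.11%: Atp5f1, Atp5g1, Atp5g3, Atp5l, Ndufa7 and Ndufv1), against 8.09% and 12.2%. By complex, the NRF1 motif was found in 7 genes of complex I, 2 of its assembly factors, 2 of complex II, 1 each of complexes III and IV and 6 of complex V. These are matches of letters, not measured binding.

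Many of these genes shared a start region with a neighbour. For 32 of 89 (36%), another gene began within 1000 bp on the opposite strand, against 14.9% of all 26180 genes with a curated RefSeq start. Ndufs1 and Eef1b2, a translation elongation factor, began 9 bp apart, Ndufa7 and the ribosomal protein gene Rps28 began 10 bp apart, Sdhd and the import chaperone gene Timm8b 52 bp, and Atp5j and Gabpa, which encodes the DNA-binding subunit of the ETS factor GABP, 102 bp. A summit at such a start belongs equally to both genes, and 19 of the 33 genes with an ATAC summit in a liver were among the 32.

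The RNA of the respiratory chain differed little between the 2 groups of libraries. Of the 87 genes tested, 0 were higher and 4 were lower in the libraries labelled JMJD1C-LKO at an adjusted p under 0.05 (edgeR quasi-likelihood test, adjusted over all 14151 genes tested). Over all genes tested, 28% passed in either direction, 14.6% higher and 13.4% lower, and among 2633 genes with a mean of at least 50 CPM, 37.5% passed. At an unadjusted p under 0.05, 7 of the 87 were higher and 8 lower. DESeq2 passed 1 higher and 3 lower. The median log2 fold change was −0.00 over the 87 genes and 0.01 over all genes, and the median size of the change was 0.09 on the log2 scale against 0.26 for all genes and 0.19 for genes of at least 50 CPM. For all 74 subunits tested other than the rare tissue isoforms (the assembly factors, Atp5s, Ndufa4l2 and Cox7a2l also left out), the 95% interval of the fold change lay within 1.5-fold in either direction, which held for 79.5% of the genes of at least 50 CPM and 49.7% of all genes. Both libraries labelled JMJD1C-LKO lay above both WT libraries for 28 genes and below them for 21, and the ranges overlapped for 38. Over all genes tested, 33.7% were above and 33.8% below. The study describes its sequencing samples as biological replicates and the RNA as pooled. With 2 libraries a group, the p-values and intervals measure the spread between these pools, not between animals. The test also draws the spread of each gene toward that of all genes, so they rest in large part on that shared spread.

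**Figure D1:**
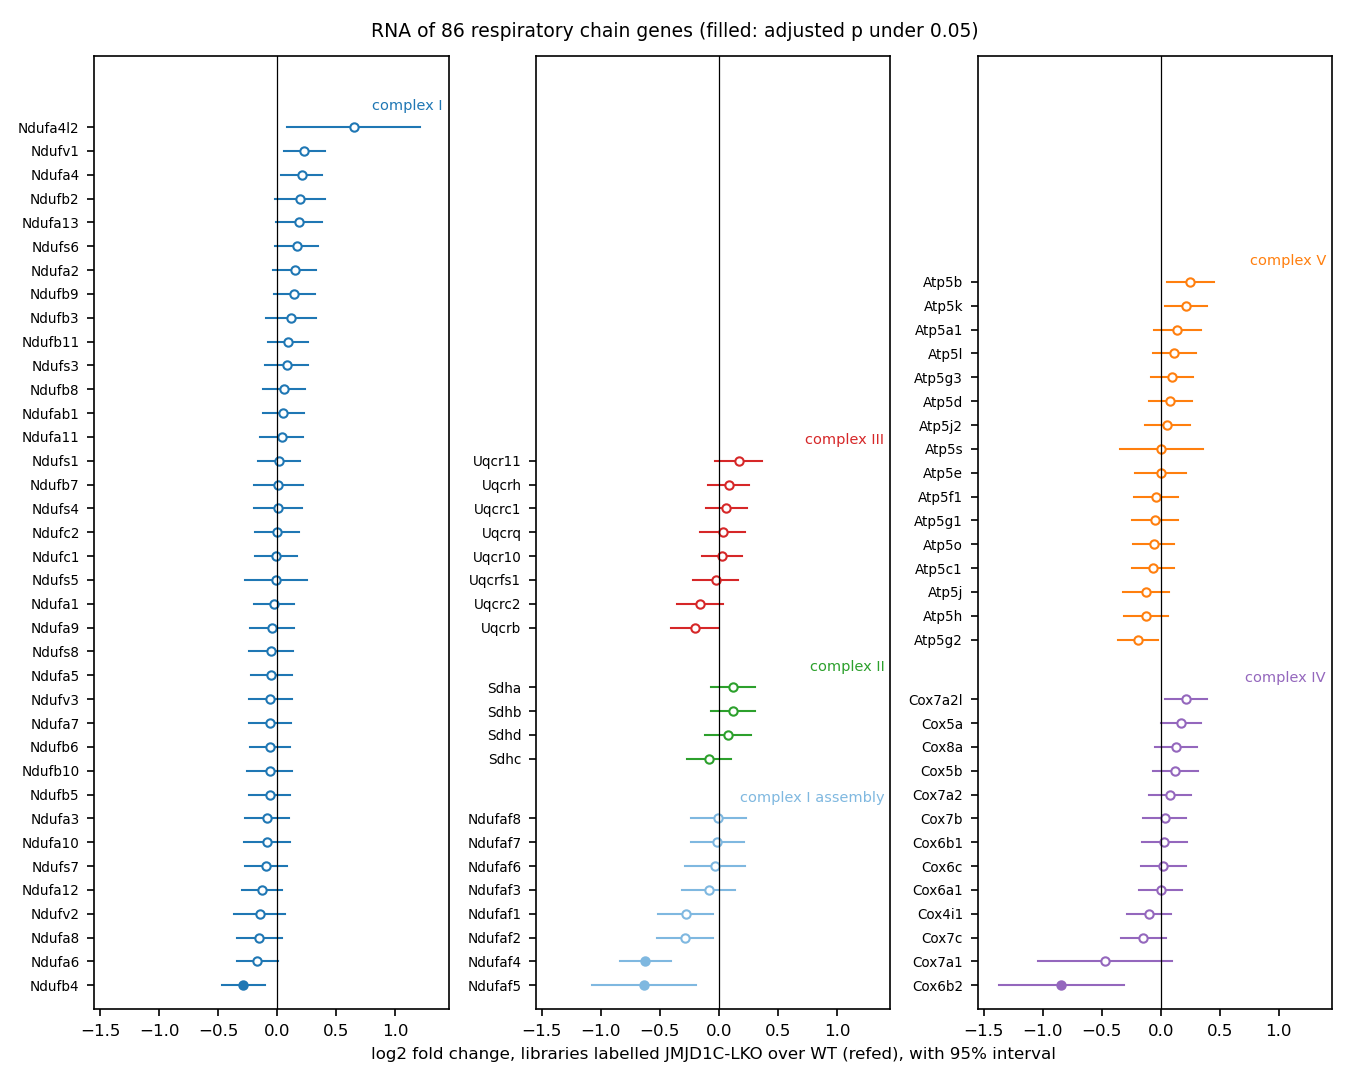
Log2 fold change of 86 of the 87 genes tested, libraries labelled JMJD1C-LKO over WT, both refed, with its 95% interval, by complex. Filled points passed the test: Ndufb4, Ndufaf4, Ndufaf5 and Cox6b2, all lower; most of the other intervals include 0.

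**Figure D2:**
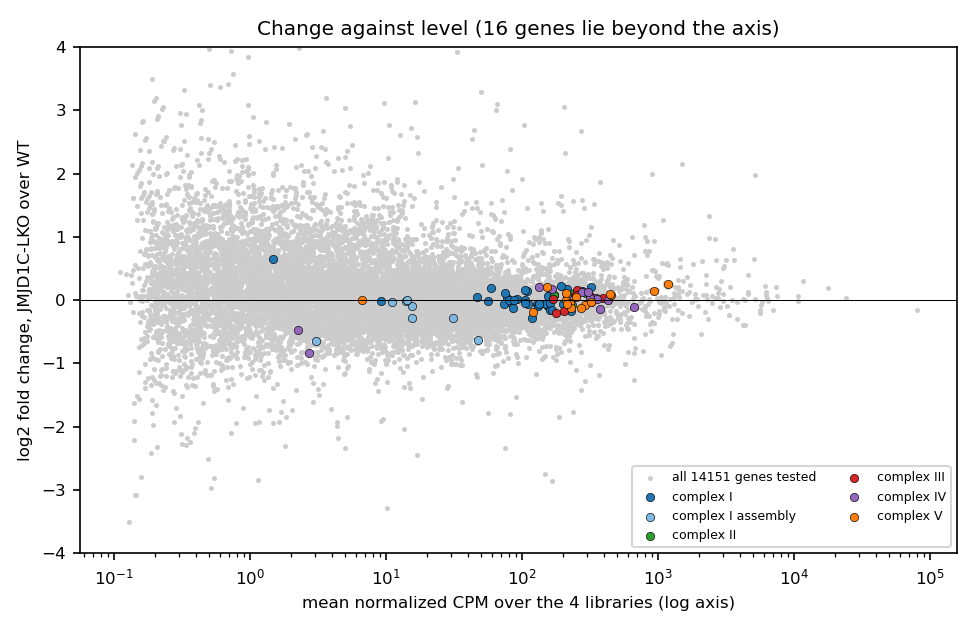
Log2 fold change (JMJD1C-LKO over WT) of the 14151 genes tested against the mean normalized CPM of the 4 libraries on a log axis, with the respiratory chain genes in colour. The subunits form a narrow band at 0 among abundant genes, and the genes that stand away from it have lower levels.

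In complex I, 1 of 38 genes passed the test. Ndufb4, an accessory subunit of the membrane arm, was at 133 and 126 CPM in WT and at 110 and 102 CPM in the libraries labelled JMJD1C-LKO. The groups did not overlap, and the level fell by 0.29 on the log2 scale (SE 0.081, edgeR adjusted p = 0.026). By edgeR the call was lost with offsets for transcript length (adjusted p = 0.060) and when transcripts were fitted singly (0.11). Ndufb4 has a single transcript, so the latter fit used the same counts. The call was also lost when WT replicate 1, WT replicate 2 or JMJD1C-LKO replicate 2 was left out. The sequence of Ndufb4 has 2 near-identical copies in the genome, the best with 99.6% identity over 98.7% of the transcript, so its counts are uncertain. Ndufv1, which binds NADH and the flavin at the entry of the complex, was at 174 and 183 CPM in WT and at 212 and 205 CPM in the other group, without overlap, and did not pass (log2 fold change 0.23, edgeR adjusted p = 0.056). The core subunits that carry the redox centres and the quinone site ranged from −0.15 to 0.23 in log2 fold change, with 4 above and 3 below 0. The 38 genes had a median log2 fold change of −0.01, with 18 above and 20 below 0.

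Of the 8 assembly factors of complex I, 2 passed the test, both lower, where 13.4% of all genes were lower and 28% passed in either direction. All 8 had a log2 fold change below 0, with a median of −0.19. The sign did not hold for every factor in other fits: 3 of 8 were above 0 without WT replicate 1, and 1 of 8 without JMJD1C-LKO replicate 1, without JMJD1C-LKO replicate 2 and with offsets for transcript length. Ndufaf4 was at 57.9 and 57.8 CPM in WT and at 41.0 and 34.2 CPM in the libraries labelled JMJD1C-LKO, a fall by 0.62 on the log2 scale (SE 0.096, edgeR adjusted p = 0.0018). Its groups lay far apart against the spread within each, and its log2 fold change stayed below 0 with each library left out. It did not pass when transcripts were fitted singly (edgeR adjusted p = 0.050). Ndufaf4 has a single transcript, so that fit used the same counts, and over all genes it passed only 379 of 14055 higher and 243 lower. Ndufaf5, a hydroxylase that modifies the Ndufs7 subunit, was much rarer, at 3.45 and 3.95 CPM in WT and 2.55 and 2.21 CPM in the other group, a fall by 0.64 on the log2 scale (SE 0.20, edgeR adjusted p = 0.038). That call was lost in DESeq2 (adjusted p = 0.067). By edgeR it was lost when transcripts were fitted singly (adjusted p = 0.18), again on the same counts, as Ndufaf5 has a single transcript. It was also lost when WT replicate 1, WT replicate 2 or JMJD1C-LKO replicate 2 was left out. Ndufaf1 and Ndufaf2, a core member of the assembly complex and a late-acting factor, had log2 fold changes of −0.28 and −0.29 with adjusted p-values of 0.066 and 0.068 by edgeR, and their groups did not overlap. Without JMJD1C-LKO replicate 2 the values were −0.14 and −0.18, and without JMJD1C-LKO replicate 1 they were −0.44 and −0.40, both then past the threshold. The other 4 factors, Ndufaf3, Ndufaf6, Ndufaf7 and Ndufaf8, overlapped between the groups. Kupffer cell markers, and some markers of lymphocytes, endothelium and stellate cells, were higher in the same libraries. The part of these cell types in the lower factors was not tested.

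Complex II had no gene that passed. Sdha, the flavoprotein that oxidises succinate, was at 274 and 290 CPM in WT and 319 and 294 CPM in the libraries labelled JMJD1C-LKO (log2 fold change 0.12, 95% interval −0.07 to 0.31). Sdhb, the iron-sulfur subunit, had a log2 fold change of 0.12 (−0.07 to 0.31), and the membrane anchors Sdhc and Sdhd had −0.08 (−0.27 to 0.11) and 0.08 (−0.12 to 0.27). The groups did not overlap for Sdha and Sdhb but overlapped for Sdhc and Sdhd.

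Complex III likewise had 0 of 8 genes past the adjusted threshold by edgeR, with 1 lower at an unadjusted p under 0.05 and a median log2 fold change of 0.03. That gene was Uqcrb, a small subunit near the quinone site, at 203 and 180 CPM in WT and 169 and 162 CPM in the other group (log2 fold change −0.21, edgeR adjusted p = 0.10). Uqcrc1 and Uqcrc2, the large core proteins, went opposite ways in value, at 0.06 and −0.16, and neither passed.

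In complex IV, 13 of 15 genes were tested and 1 passed, Cox6b2, an isoform known from testis. It was at 3.38 and 3.64 CPM in WT and at 1.56 and 2.34 CPM in the libraries labelled JMJD1C-LKO (175 and 190 against 77 and 129 counts), a fall by 0.84 on the log2 scale (SE 0.24, edgeR adjusted p = 0.025). By edgeR the call was lost without WT replicate 1 (adjusted p = 0.12), WT replicate 2 (0.17) or JMJD1C-LKO replicate 1 (0.050, with a log2 fold change of −0.59), and on the most abundant transcript (0.16). Its counterpart Cox6b1, which is the form found in most tissues, was at 366 and 334 CPM against 365 and 350 CPM, with overlapping groups. Cox7a2l, which helps to join complexes III and IV into supercomplexes, was at 119 and 130 CPM in WT and 144 and 144 CPM in the other group, without overlap, and did not pass (log2 fold change 0.21, edgeR adjusted p = 0.076). Ndufa4, also a subunit of this complex, was at 299 and 296 CPM against 342 and 345 CPM (log2 fold change 0.21, edgeR adjusted p = 0.073). Cox4i1, the form of subunit 4 found in most tissues, had a log2 fold change of −0.10 (95% interval −0.29 to 0.09).

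Complex V had 0 of 16 genes past the adjusted threshold by edgeR, with 2 higher and 1 lower at an unadjusted p under 0.05, and a median log2 fold change of 0.00. Atp5b, the catalytic beta subunit, was at 1028 and 1142 CPM in WT and at 1306 and 1277 CPM in the libraries labelled JMJD1C-LKO, without overlap. Its log2 fold change was 0.25 with an adjusted p of 0.058 by edgeR, and DESeq2 put it past the threshold. Atp5k, a small membrane subunit, had 0.22 and an adjusted p of 0.070 by edgeR. The 3 genes of the identical c-ring protein did not move alike in value: Atp5g1 had a log2 fold change of −0.05, Atp5g2 had −0.19 (edgeR adjusted p = 0.091) and Atp5g3 had 0.10. Summed over the complex, the level was 5346 and 5426 CPM in WT and 5580 and 5800 CPM in the other group. Scaled for transcript length (TPM, explained below), the sums overlapped, at 10527 and 10908 in WT and 10737 and 10963 in the other group.

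Levels were compared between genes per transcript length, as TPM, the count divided by the transcript length and scaled to the library, computed from the estimated counts. The highest gene was Ndufa4 under complex I, at 1030 ± 6.45 TPM (SD, n = 2 WT libraries), Cox4i1 in complex IV, at 1780 ± 79.2, and Atp5g3 in complex V, at 1044 ± 3.16. The catalytic Atp5b, at 932 and 1057 TPM, overlapped both Ndufa4 and Atp5g3, so these 3 have no clear order. Cox6a1 was at 1404 and 1334 TPM and Cox6b1 at 1323 and 1235 TPM, so that the lower library of the one lay just above the higher library of the other. The assembly factors ran from 49.5 ± 1.63 for Ndufaf8 to 2.33 ± 0.26 for Ndufaf5. In complex II, Sdhb (371 ± 19.6) and Sdhc (352 ± 6.13) came within 1 TPM of each other, at 357 TPM in the lower Sdhb library and 356 TPM in the higher Sdhc library, and lay above Sdhd (226 ± 17.8) and Sdha (170 ± 9.60). In complex III, Uqcr11 was highest at 941 ± 70.1 and Uqcrc2 lowest at 197 ± 8.51. The structural subunit with the lowest level in complex I was Ndufs5, at 31.4 ± 0.065 TPM, whose transcript has a genomic copy of 99.6% identity over 99.0% of its length, so that reads may have been split or dropped. Such copies, with at least 95% identity over at least 50% of the transcript outside the gene itself, were found for 21 of the 89 genes, up to 10 for Atp5l, and the counts of these genes are uncertain. Among them are Uqcrb, Cox7a2l, Atp5g1, Atp5g2 and Atp5k, whose changes are given above.

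The paralogues split into abundant and rare forms. Cox6b2 was at 13.0 ± 0.93 TPM in WT livers where Cox6b1 was at 1279, and Cox7a1, the heart and muscle form, was at 12.3 ± 3.72 where Cox7a2 was at 479 ± 10.4 and Cox7a2l at 197 ± 15.3. Cox4i2, induced by low oxygen in lung, and Cox6a2, the heart and muscle form, had 2 to 3 and 1 to 6 counts per library and were too low to test. Ndufa4l2, known as a target of hypoxia signalling, was at 2.05 ± 0.0017 TPM in WT and 3.15 ± 0.11 TPM in the libraries labelled JMJD1C-LKO (log2 fold change 0.65, edgeR adjusted p = 0.084), against 1030 for Ndufa4 in WT. Markers of skeletal muscle summed to 3.92 and 2.38 CPM in WT and 1.96 and 1.51 CPM in the other group, beside 2.08 and 3.14 against 1.80 and 1.96 CPM for Cox7a1. Their part in the low isoforms was not tested. Among the c-ring genes, Atp5g3 was the most abundant, followed by Atp5g1 at 492 ± 38.0 and Atp5g2 at 340 ± 5.35 TPM. Cox8a was at 921 ± 0.12 TPM.

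**Figure D3:**
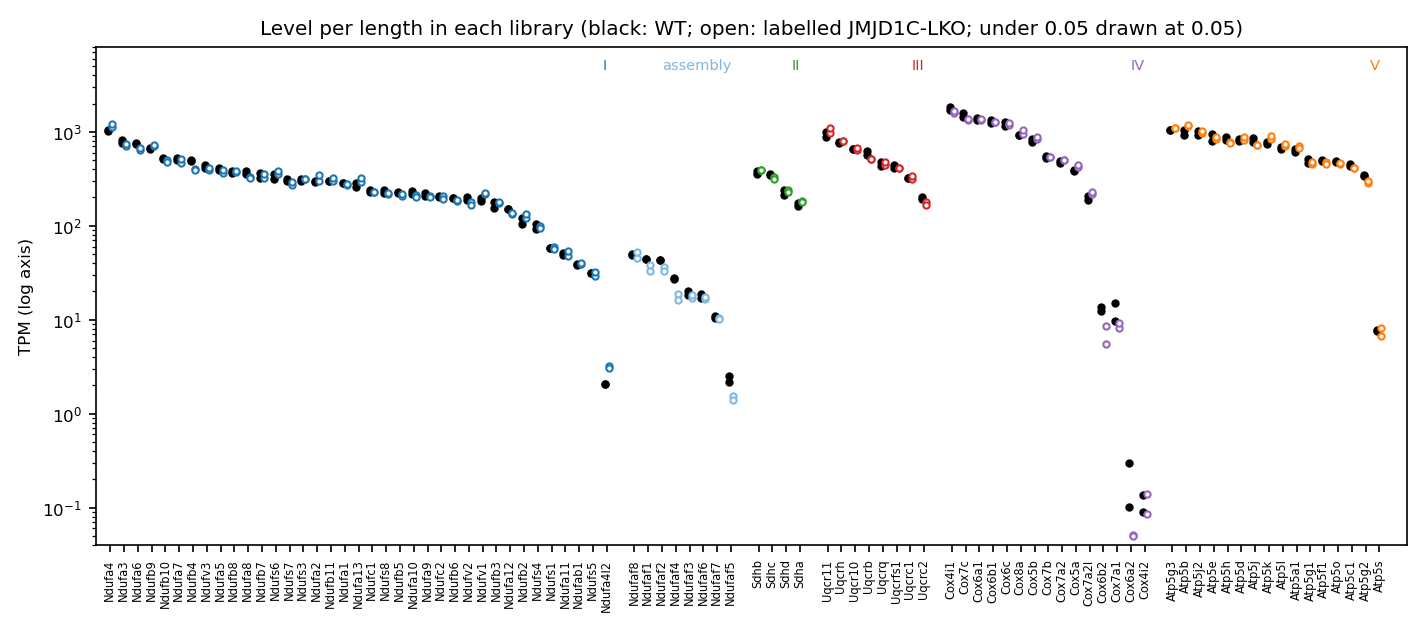
TPM of 88 of the 89 genes in the 4 libraries on a log axis, ordered by WT level within each complex, with WT in black and the libraries labelled JMJD1C-LKO open. Most subunits lie in a band at the top, the assembly factors lie below it, and Ndufa4l2, Cox4i2, Cox6a2, Cox6b2, Cox7a1 and Atp5s lie far under their complexes.

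Among 24 genes of mitochondrial biogenesis tested, 2 were higher and 9 lower by the same test, with a median log2 fold change of −0.22, where 28% of all genes passed in either direction. The list holds transcriptional regulators of nuclear respiratory genes together with genes that maintain mitochondrial DNA or bind its RNA, such as Polg, Twnk, Ssbp1 and Lrpprc. Its share was not tested against that of the respiratory chain genes. Ppargc1a and Ppargc1b, the PGC-1 coactivators that drive transcription of respiratory genes, were the 2 that rose. Ppargc1a was at 8.82 and 8.91 CPM in WT and 25.5 and 33.1 CPM in the libraries labelled JMJD1C-LKO, a log2 fold change of 1.72 (SE 0.13, edgeR adjusted p = 5.4e-05). Ppargc1b rose by 0.79 on the log2 scale (SE 0.10), and the related Pprc1 fell by 0.93 on the log2 scale (SE 0.087), from 27.8 and 28.7 CPM to 15.3 and 14.4 CPM. Of the genes for the factors whose motifs were searched, Nrf1 fell by 0.52 on the log2 scale, from 10.7 and 11.5 CPM to 8.09 and 7.40 CPM (SE 0.12, edgeR adjusted p = 0.013). The GABP cofactor genes Gabpb1 and Gabpb2 fell by 0.45 and 0.31 on the log2 scale and Sp1 by 0.31. Gabpa, Yy1 and Esrra had values of −0.10, −0.21 and 0.20 and did not pass, and neither did Usf1 and Usf2 at 0.09 and −0.18.

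Among 44 assembly factors of the chain other than the Ndufaf genes, 2 were higher and 9 lower, with a median of −0.13. Tmem186, a complex I assembly factor, was at 16.8 and 17.4 CPM in WT and 11.9 and 11.9 CPM in the libraries labelled JMJD1C-LKO, a fall by 0.52 on the log2 scale (SE 0.096, edgeR adjusted p = 0.0040). Pet100, which acts in complex IV assembly, fell by 0.41 on the log2 scale. Sco2, a copper chaperone of complex IV, and Nubpl, which delivers iron-sulfur clusters to complex I, rose by 0.77 and 0.71. Among 21 other nuclear genes of electron transport, 4 were higher and 2 lower. Coq8a and Coq7 of ubiquinone synthesis and Atpif1, the inhibitor of ATP synthase, rose by 0.58, 0.37 and 0.52, while Gpd2, the mitochondrial glycerol-3-phosphate dehydrogenase that passes electrons from cytosolic NADH to ubiquinone, fell by 0.62 on the log2 scale, from 36.6 and 39.1 CPM to 24.0 and 25.3 CPM. Of 18 enzymes of the TCA cycle and its entry, 2 were higher (Dlst at 0.40 and Fh1 at 0.37) and 3 lower, among them Pdhb, the beta subunit of the pyruvate dehydrogenase E1 enzyme, at −0.62, and Idh3a at −0.44. Of 21 genes of cristae and protein import, Apoo alone passed, at −0.37. Over all genes tested, 14.6% were higher and 13.4% lower.

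Open chromatin was found at the starts of a minority of the genes. A MACS2 ATAC summit, the point of strongest signal in a called peak, lay within 1000 bp of a RefSeq start for 28 of the 89 genes (31.5%) in WT fasted replicate 1 and for 15 (16.9%) in replicate 2. After refeeding it was 16 genes and 11 genes (12.4%) in WT and 9 (10.1%) and 0 in the livers labelled JMJD1C-LKO. For the genes tested by RNA-seq the shares were 20.3%, 9.25%, 16.8%, 10.6%, 6.75% and 1.39% in the same order, and for those of at least 50 CPM they were 22.8%, 10.9%, 18.4%, 12.9%, 7.13% and 1.64%. The shares of the respiratory chain genes were within 1 percentage point of those of abundant genes in the WT refed livers and higher in value in the fasted livers, a difference that was not tested. A summit in both livers was found for 12 genes in the fasted group, where 7.33% of the genes tested had one, for 8 in the WT refed group (8.09%), and for 0 in the group labelled JMJD1C-LKO (0.589%). With 2 livers a group, an exact permutation test cannot reach p under 0.05, and the livers labelled JMJD1C-LKO had too few summits to tell closed chromatin from a shallow list.

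An ATAC summit in all 4 WT livers was found for 6 of the 89 genes: Ndufa4, Ndufa11, Uqcrq, Cox7a2l, Atp5b and Atp5g1. At Atp5b the summits lay at +30 and -165 bp from the start in the fasted livers, at -150 and -147 bp in the refed livers, and at -147 bp in 1 liver labelled JMJD1C-LKO. At Ndufa4 they lay from -238 to -112 bp in 5 livers. At Ndufa11 they lay at -591 to -787 bp, far from the NRF1 motif at -60 printed above, and the gene Vmac begins on the other strand 63 bp from Ndufa11. Summits in both fasted livers and not in both refed livers were found at Ndufb3, Ndufaf4, Ndufaf8, Uqcrh, Atp5h and Atp5l. Of these, Ndufaf8 and Uqcrh also had a summit in 1 refed liver. Summits in both refed livers and in only 1 fasted liver were found at Atp5c1, a central stalk subunit, and Atp5s. Thus 6 of the 12 genes with summits in both fasted livers had them in both refed livers (50%), against 62.1% over all annotated genes, and 6 of the 8 in the other direction (75%), against 56.6%, differences that were not tested. By complex, an ATAC summit in any liver was found for 13 of 38 genes of complex I, 4 of 8 assembly factors, 1 of 4 of complex II, 4 of 8 of complex III, 2 of 15 of complex IV and 9 of 16 of complex V. By RNA level, the 33 genes with an ATAC summit in a WT liver had a median of 334 TPM and the 56 others of 346 TPM. A motif for NRF1, ETS or YY1 was in 16 of the 29 promoters of genes with an ATAC summit and in 22 of 45 of the others.

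**Figure D4:**
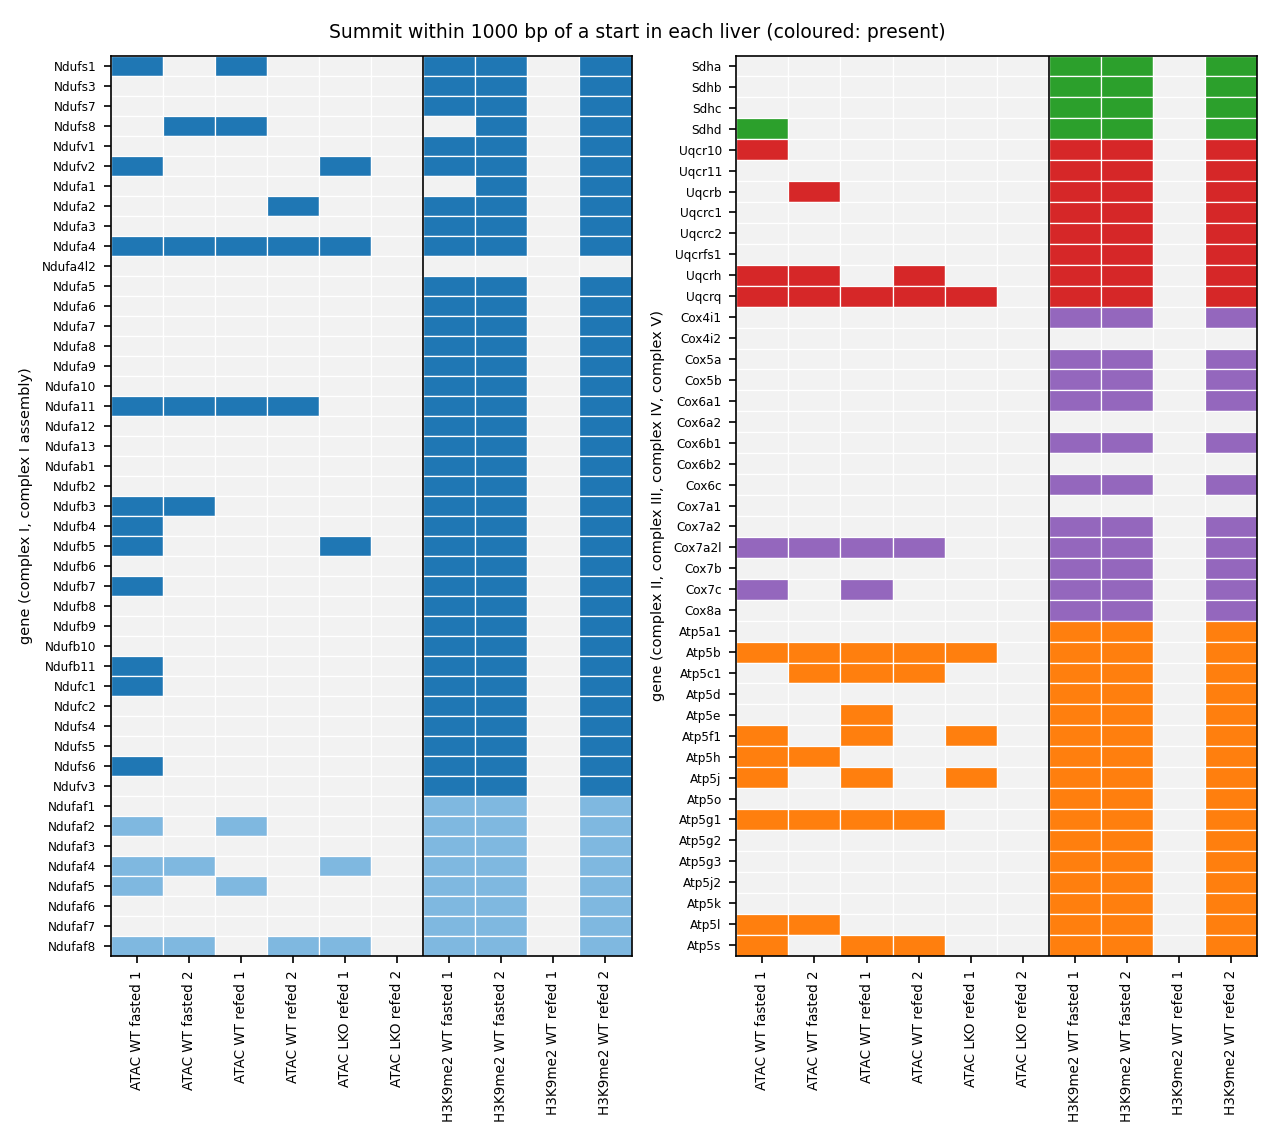
Genes by row (88 of the 89) and livers by column, coloured where a summit lay within 1000 bp of a start, ATAC-seq left of the line and H3K9me2 right of it. H3K9me2 is present at nearly every gene in 3 of 4 livers and at none in WT refed replicate 1, whereas ATAC summits are scattered and most frequent in complex V.

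H3K9me2 summits were at the starts of nearly all the genes. They were found for 82 and 84 of 89 genes (92.1% and 94.4%) in the WT fasted livers, and for 0 and 84 (94.4%) in the WT refed livers, the 0 being the short list of replicate 1, in which 61 of all 26180 genes had a summit at a start. For the genes tested by RNA-seq, the shares were 51.5%, 74.1%, 0.135% and 61.6%, and for those of at least 50 CPM they were 85%, 95.2%, 0.229% and 90.6%. A summit in both livers was found for 82 genes in the fasted group, where 51.3% of the genes tested had one, and for 0 in the refed group (0.071%). In all 3 long lists, a summit was present for 82 genes (92.1%), against 49.4% of the genes tested and 82.5% of those of at least 50 CPM. Without replicate 1 the refed state rests on 1 liver, and a difference between fasted and refed livers could not be tested. At each of the 84 genes with a summit in the other refed liver, at least 1 fasted liver had one as well.

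No H3K9me2 summit in any liver was found for 5 of the 89 genes: Ndufa4l2, Cox4i2, Cox6a2, Cox6b2 and Cox7a1. They also had no ATAC summit, and their mean RNA level did not exceed 13.0 TPM in WT, whereas the 84 genes with H3K9me2 had a median of 359 TPM. H3K9me2 thus differed within the pairs Cox6b1 and Cox6b2, Cox4i1 and Cox4i2, Cox6a1 and Cox6a2, and Cox7a2 and Cox7a1. In each pair the abundant paralogue had H3K9me2 summits and the rare paralogue had none. Neither paralogue of these pairs had an ATAC summit in any liver. Low level alone did not divide the genes, since Ndufaf5 (2.33 TPM in WT) and Atp5s (7.62 TPM) had H3K9me2 summits. Ndufaf5 begins 88 bp from Esf1 on the other strand. At Ndufaf5 the summits lay at -275, -343 and -368 bp, on the side of Esf1.

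The marks took different places around the start. The 291 H3K9me2 summits at these genes had a median position of +250 bp, inside the gene, and the 80 ATAC summits a median of -98 bp, upstream, against +231 and -112 bp for all genes. Within 100 bp of the start lay 28 ATAC summits (35%) and 0 H3K9me2 summits, against 29.5% and 4.45% for all genes. H3K9me2 summits fell from +100 to +500 bp in 218 cases (74.9%) and from -700 to -200 bp in 61 (21%). Atp5b showed both sides, with H3K9me2 summits at +315 and -474 bp in the first fasted liver, +245 and -466 bp in the second and +240 and -532 bp in the refed liver. Cox6b1 had summits at +244, +230 and +232 bp in the same livers and none upstream. At Ndufb4, they lay at +457, +252 and +235 bp. Between livers, the nearest H3K9me2 summits of a gene lay a median of 40 to 45.5 bp apart.

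**Figure D5:**
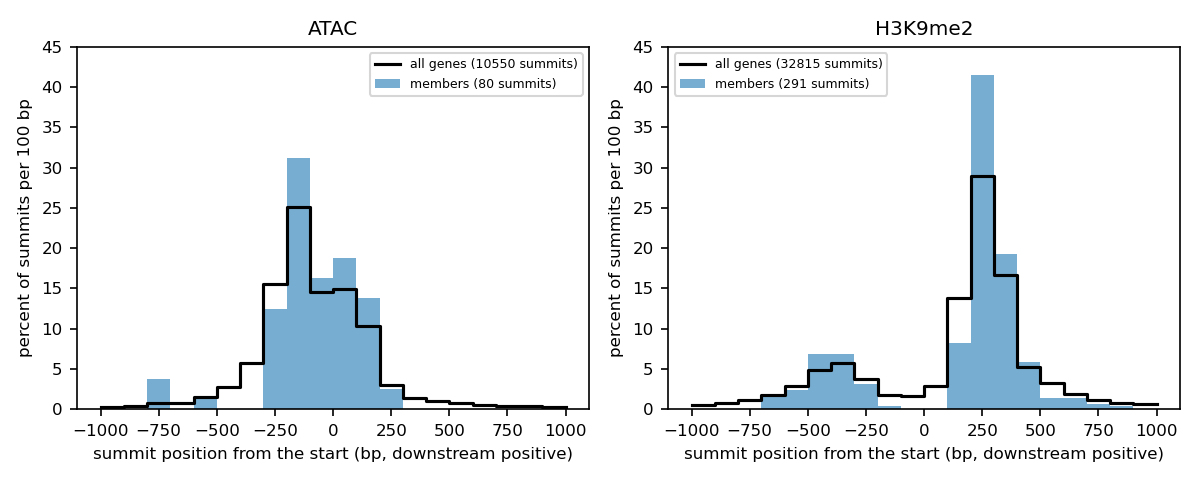
Position of summits relative to the nearest start of the gene, in bins of 100 bp, as percent of summits in all livers, for the respiratory chain genes (bars) and all genes (line). ATAC summits gather just upstream of the start, and H3K9me2 summits on either side of it with most from +200 to +400 bp and none of the respiratory chain genes within 100 bp.

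Every one of the 33 genes with an ATAC summit also had an H3K9me2 summit. In the fasted livers, the ATAC and H3K9me2 summits of 1 gene lay a median of 271 bp apart (31 genes, 16 to 786 bp) and in the refed livers 354 bp (19 genes, 136 to 684 bp). Each list comes from bulk liver, so marks on different cells or alleles cannot be told from marks on the same chromatin. Among the 4 genes whose RNA was lower in the libraries labelled JMJD1C-LKO, Ndufaf4 had ATAC summits at +115 and +178 bp in the fasted livers and at -135 bp in 1 liver labelled JMJD1C-LKO, and none in WT refed livers. Ndufaf5 had them in 1 fasted and 1 WT refed liver, Ndufb4 in 1 fasted liver, and Cox6b2 in none.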

How the data were processed

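RNA-seq was analysed in 4 libraries, ATAC-seq in 6 and H3K9me2 ChIP-seq in 4, and the input libraries were not used. The RNA-seq table holds unscaled estimated counts for each RefSeq transcript, as the authors deposited it. Per the labels, reads were aligned with HISAT2 and counted in Partek. The counts were summed per gene, rounded and tested with edgeR 4.0.16 in R 4.3.3 (TMM scaling, filterByExpr, quasi-likelihood F test, Benjamini-Hochberg adjustment over 14151 genes), with an adjusted p threshold of 0.05. CPM uses TMM-scaled totals. TPM was computed from the counts and RefSeq lengths. The deposited table of the authors' own comparison (fold changes and p-values) was not used. For the other assays the authors deposited MACS2 2.1.1 summits, called in each liver on mm10, with the −log10 q-value at each; the lists hold no read depth, so depth is unknown and scores were not compared between livers. Summits were assigned to every gene with a curated RefSeq start (GRCm38.p6) within 1000 bp. Named genes were those past the threshold, isoform sets, the highest and lowest gene of a complex, complex II, genes with summits in both livers of a group and the 4 lowest p-values of a list; genes near the threshold and the factors of searched motifs were added after their values were seen, as was the comparison with genes of at least 50 CPM. The members and lists were chosen with earlier results of these data known. The test was checked on simulated counts. Near-identical copies were found with megablast against GRCm38.p6. The labels give no batch. The RNA replicate numbers did not pair the libraries (the correlation of deviations between same-numbered libraries was -0.0046). 1 gene is counted in all totals but is not reported here by itself or drawn in the plots of single genes. Promoters of Ndufs1, Ndufa2, Ndufa4l2, Ndufb9, Ndufaf6, Sdhc, Uqcrb, Uqcrc2, Uqcrq, Cox4i1, Cox4i2, Cox6a2, Cox6c and Atp5a1, among others, were not analysed here.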

Additional observations from a re-analysis of the deposited data

How the results depend on the processing

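The count of 4 respiratory chain genes past the threshold, all lower in the libraries labelled JMJD1C-LKO, was 4 with RLE size factors, 4 without a filter on low counts and 4 with DESeq2 (1 higher). DESeq2 gained Atp5b and lost Ndufaf5. The count was 5 with offsets for transcript length (2 higher, with Ndufb4 lost) and 5 with the replicate block, which added Ndufaf1 and kept the 4. It was 7 with library size alone (all lower, the median of all genes then being −0.03). It was 0 by edgeR when the most abundant transcript of each gene was fitted singly (6 higher and 5 lower at an unadjusted p under 0.05). In that fit 379 of all 14055 genes were higher and 243 lower, against 2066 and 1892 of 14151 in the main fit. Ndufb4, Ndufaf4 and Ndufaf5 have a single transcript each, so both fits used the same counts for them. With 1 library left out a group holds 1 library, and the number passing then moved for these genes and for all genes alike. The median log2 fold change of the 87 genes was 0.04 without WT replicate 1 and −0.05 without WT replicate 2. It was −0.03 without JMJD1C-LKO replicate 1 and 0.01 without JMJD1C-LKO replicate 2. The same numbers do not pair the libraries. Without assembly factors and other genes that are not subunits, 2 of 76 passed, Ndufb4 and Cox6b2. Of 242 alternative values for 22 genes named with a fold change, 216 kept direction and side of the threshold, 15 lost it and 10 gained it; 1 changed sign, that of Atp5g1, which ranged from −0.1424 to 0.0467 when each library was left out, being above 0 without WT replicate 1. For ATAC, genes with a summit in both livers were 12 (WT fasted), 8 (WT refed) and 0 (JMJD1C-LKO). They were 5, 1 and 0 when each list was held to its 825 strongest summits, and 9, 4 and 0 with a score of at least 5. Each liver alone gave 15 to 28 (WT fasted), 11 to 16 (WT refed) and 0 to 9 (JMJD1C-LKO). For H3K9me2 they were 82 (fasted) and 0 (refed), 17 and 0 with the 1297 strongest summits, and each liver alone gave 82 to 84 and 0 to 84. Windows of 500 and 2500 bp and the starts of all RefSeq transcripts moved no count by over 1.5 times. The cause of the other changes was not tested. Groups of 2 livers or libraries limit every comparison, and the number of summits in a list limits what its absence can show.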
